A study of Mus musculus with 10 samples.

Results

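The 10 genes described here encode chaperones and co-chaperones of heart muscle: the HSP70 proteins Hspa1a, Hspa1b and Hspa8, the HSP110 protein Hsph1, the HSP70 helper Dnajb1, the HSP90 protein Hsp90aa1, the small heat shock proteins Hspb1, Hspb7 and Cryab, and the co-chaperone Bag3. They were chosen by symbol, and all 10 were found among the 37583 gene rows and passed the filter on low counts. Messenger RNA of left atria from adult mice was sequenced in 10 libraries: 3 after treatment with ibrutinib (IBR), a blood cancer drug that blocks Bruton's tyrosine kinase, 3 after vehicle (CTL), 2 labelled as a cardiac knockout of Csk (KO26 and KO337), and 2 from untreated wild types (WT35 and WT338). The kinase made from Csk keeps the Src family switched off. Beyond adult, the sources used here give no age, and they name no strain, sex, drug dose, duration of treatment, or Cre line or promoter behind the knockout. They also do not say whether libraries came from different mice, so the p-values cover the spread between libraries, which may be technical.

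Chaperones of the HSP70 and HSP90 families bind unfolded or maturing proteins and release them in cycles driven by ATP, and J-domain proteins such as Dnajb1 hand them their clients. Small heat shock proteins work without ATP and hold unfolding proteins soluble; in heart muscle Cryab, Hspb1 and Hspb7 associate with the sarcomere and its filaments. Bag3 joins HSP70 to small heat shock proteins and steers damaged Z-disc proteins such as filamin C to autophagy. Heat, proteotoxic drugs and other stress activate heat shock factor 1, which binds repeated GAA units in alternating orientation upstream of its target genes, and Hspa1a and Hspa1b are the classic strongly induced genes, while Hspa8 is the constitutive HSP70 of most tissues.

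The stretches before the start sites of Hspa1a, Hspa1b, Hspb1 and Bag3 are shown because the first 2 genes moved together in a single library, Hspb1 belongs to the muscle-rich small heat shock proteins and Bag3 carried the one call of the genotype comparison. They are the 250 bases upstream of the annotated start in RefSeq on GRCm38.p6, 5′ to 3′ on the gene's strand, and capitals mark each match to GAANNTTC or TTCNNGAA, a pair of heat shock units (both motifs read the same on either strand).
Hspa1a, chr17:34972157-34972406, minus strand: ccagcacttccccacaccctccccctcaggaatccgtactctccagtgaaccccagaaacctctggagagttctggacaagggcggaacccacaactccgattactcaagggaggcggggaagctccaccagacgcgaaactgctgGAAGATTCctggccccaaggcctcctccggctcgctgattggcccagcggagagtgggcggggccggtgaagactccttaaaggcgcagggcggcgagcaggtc
Hspa1b, chr17:34959239-34959488, minus strand: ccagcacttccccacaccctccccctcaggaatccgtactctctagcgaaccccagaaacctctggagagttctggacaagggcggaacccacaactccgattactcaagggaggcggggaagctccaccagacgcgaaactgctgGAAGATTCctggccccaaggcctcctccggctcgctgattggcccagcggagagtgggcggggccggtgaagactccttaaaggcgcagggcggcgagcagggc
Hspb1, chr5:135887669-135887918, plus strand: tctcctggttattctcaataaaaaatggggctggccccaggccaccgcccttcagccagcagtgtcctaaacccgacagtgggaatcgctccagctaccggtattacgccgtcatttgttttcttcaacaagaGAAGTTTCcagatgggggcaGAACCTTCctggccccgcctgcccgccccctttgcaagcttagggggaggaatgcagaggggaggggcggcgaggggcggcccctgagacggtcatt
Bag3, chr7:128523333-128523582, plus strand: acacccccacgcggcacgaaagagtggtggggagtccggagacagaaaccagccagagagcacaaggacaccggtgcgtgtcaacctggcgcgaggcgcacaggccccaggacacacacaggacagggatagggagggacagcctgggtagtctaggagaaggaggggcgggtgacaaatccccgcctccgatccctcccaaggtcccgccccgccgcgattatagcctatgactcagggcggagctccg
The Hspa1a and Hspa1b stretches were identical at 247 of 250 bases, and in both the marked pair began at position -104 from the start site. Hspb1 held 2 pairs, of which the nearer began at -97, and the Bag3 stretch held none. Of the 7 members with an entry, Hspa1a, Hspa1b, Hsph1 and Hspb1 had at least 1 pair and Bag3, Hspb7 and Dnajb1 had none, against 12.8% of all 32851 windows of that length with at least 1. That share is per window, while Hsph1 and Dnajb1 had more than 1 window each. The Hsph1 windows held 61 and 40 bases of its own exons. Those of Dnajb1 held 47 bases of Tecr exons and 245 bases of its own exons, so they are not purely upstream sequence. A run of 3 alternating units was in 0.466% of all windows and in none of the members' windows. A match is a description of the letters only.

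Reads of some members can be shared with near-identical genes, which bears on how far their counts can be read. In the annotation used here (GENCODE vM21), 66.3% of the 50-base words of the Hspa1a transcript and 62.3% of those of the Hspa1b transcript also occurred in another gene, mainly in each other, and reads without a unique position entered no gene's count. The share was 74.8% for Hspa8, 58.5% for Hsp90aa1 and 51.6% for Hspb1, which have pseudogene copies, and 19% for Cryab, whose exons overlap those of Hspb2. Bag3 and Hsph1 had no shared word, and Hspb7 (1.4%) and Dnajb1 (0.441%) had few. The counts ignored strand, and 19% of the exon bases of Hspa1a overlap the gene model Gm20481. The sources used here give no read length, so these shares are a guide.

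Per kilobase of exon, the members covered a wide range of levels with the small heat shock proteins Cryab and Hspb7 at the top. In CTL libraries Cryab averaged 1174 CPM (counts scaled to a common library size) per kilobase and Hspb7 759, followed by Hspa8 at 337.6, Hspb1 at 261, Bag3 at 136, Hsp90aa1 at 66.4, Hsph1 at 11.3, Dnajb1 at 5.83, Hspa1b at 0.756 and Hspa1a at 0.466. The order of the means was the same in IBR, labelled KO and WT libraries. In CTL libraries the ranges of Hspa8 and Hspb1 overlapped, as did those of Hsph1 and Dnajb1, and no other neighbours in the order did. The inducible pair was measured from few reads: Hspa1a had 7 to 37 reads and Hspa1b 22 to 48 reads in 8 of the 10 libraries, with KO26 (66 and 75 reads) and WT35 (746 and 1003 reads) above.

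The libraries held 14907331 to 19960947 counts on genes, so 3 counts corresponded to 0.136 to 0.216 CPM. Csk itself went against the labels, at 24.7 and 35.5 CPM in KO26 and KO337 against 18.2 and 17.8 CPM in WT35 and WT338 (log2 difference 0.74, SE 0.18, adjusted p = 0.0608 in edgeR's quasi-likelihood test), and counts over the whole gene cannot resolve a deleted exon, so these libraries are called labelled KO. KO337 stood apart, with a Spearman correlation of 0.954 with KO26 against 0.984 to 0.991 for the other pairs within a group. The defining markers of heart muscle cells were high in every library apart from Tnnc1, which had 4 counts in all. The 15 markers summed to 39230 and 77640 CPM in KO337 and KO26 against 99650 to 106200 CPM in WT, and to 110200 to 120200 CPM in IBR against 118600 to 136800 CPM in CTL. The 11 macrophage and leukocyte markers summed to 1367 and 3665 CPM in KO26 and KO337 against 520 to 554 CPM in WT, and the 10 fibroblast markers to 5755 and 16960 CPM in the same labelled KO libraries against 5039 to 5510 CPM in WT.

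All 10 members had lower fitted levels in labelled KO libraries than in WT, as had 49.2% of all genes, and Bag3 (ENSMUSG00000030847) was the 1 member called, that is, with an adjusted p under 0.05. It had 194 CPM (KO26) and 168 CPM (KO337) in labelled KO, against 322 CPM in WT35 and 339 CPM in WT338. Both labelled KO libraries lay well below both WT libraries, and the libraries within each group were close. Bag3 was thus 1.83-fold lower (log2 -0.87, SE 0.16, adjusted p = 0.0330 in edgeR's quasi-likelihood test with Benjamini-Hochberg adjustment over all genes). Over all 15364 genes 2.21% were called in this comparison, 1.31% as higher and 0.898% as lower. At an unadjusted p under 0.05 there were 6 members lower (Bag3, Hspa8, Hspb1, Hspb7, Cryab and Hspa1b), where 12.4% of all genes were lower and 13.3% higher. The labelled KO and WT libraries did not overlap for 6 of 10 members, all lower, against 26.9% of all genes lower and 26.3% higher without overlap. The members' median log2 difference was -0.86, against 0.0067 over all genes, and it was -0.49 without WT35. The Bag3 difference lay between -0.79 and -0.99 when any 1 library was left out, but the call was lost without CTL1, IBR1, IBR2, IBR3, WT35, WT338 or KO337 (adjusted p of 0.0523 to 0.165), and in a fit of the labelled KO and WT libraries alone (adjusted p = 0.313).

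**Figure D1:**
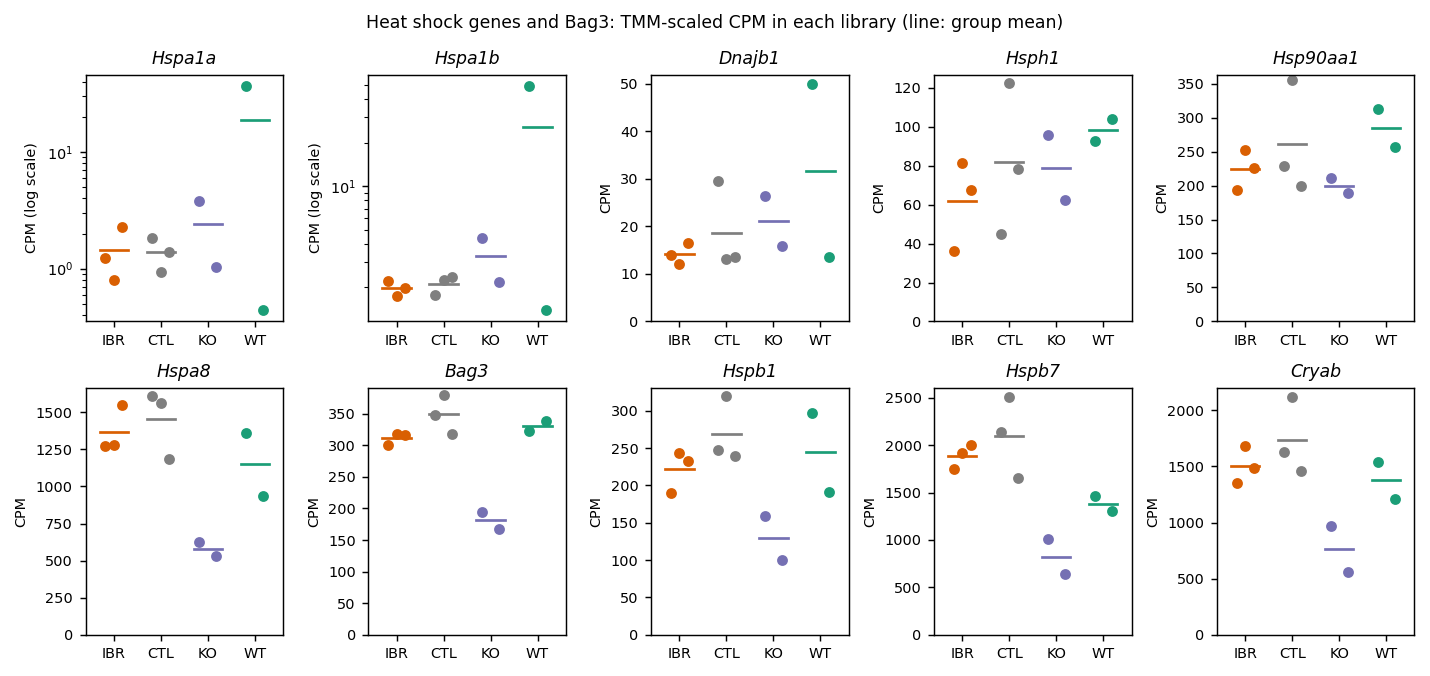
CPM of each member in every library (points) with the group mean (line), IBR and CTL to the left and labelled KO and WT to the right in each panel; Hspa1a and Hspa1b have a log axis, the others a linear axis from 0. The Bag3 points of the labelled KO libraries (194 and 168 CPM) lie below all others, and Hspa1a and Hspa1b stand far above the rest in 1 WT library (36.9 and 49.6 CPM).

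The small heat shock proteins had the same direction as Bag3 and were not called. Cryab, alpha B-crystallin, the chaperone of desmin and titin, had 969 CPM (KO26) and 563 CPM (KO337) in labelled KO, against 1544 CPM in WT35 and 1208 CPM in WT338. Its groups did not overlap, but KO26 was nearer to WT338 than to KO337 (log2 -0.85, SE 0.29, adjusted p = 0.116). Hspb7, the small heat shock protein of the cardiovascular system, had 1008 and 641 CPM in KO26 and KO337, with WT35 and WT338 at 1460 and 1310 CPM (log2 -0.75, SE 0.27, adjusted p = 0.124). Hspb1, known in mouse as Hsp25, had 158 and 99.9 CPM in the same labelled KO libraries and 298 and 191 CPM in those of WT (log2 -0.92, SE 0.28, adjusted p = 0.0888). For all 3 genes KO337 was the lowest of the 10 libraries. Without KO337 their log2 differences were -0.53 for Cryab, -0.48 for Hspb7 and -0.65 for Hspb1, so the values of Cryab and Hspb7 rest in part on that library. Without WT35 the difference of Hspb1 was -0.57. Without KO26 they were -1.31, -1.13 and -1.31, and all 3 were called (adjusted p of 0.00466 to 0.00797), in a fit that called 24.3% of all genes.

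Of Hspa8, Hsp90aa1 and Hsph1, Hspa8 had the largest difference from WT. This constitutive HSP70 had 625 CPM (KO26) and 529 CPM (KO337) in labelled KO, against 1363 CPM in WT35 and 938 CPM in WT338. The labelled KO libraries were close to each other and below both WT libraries, which differed 1.45-fold between themselves (log2 -0.996, SE 0.25, adjusted p = 0.0628). Without WT35 the log2 difference was -0.71. Hsp90aa1, the inducible HSP90 of the cytosol, had 211 and 189 CPM in KO26 and KO337, with WT35 and WT338 at 312 and 257 CPM (log2 -0.51, SE 0.26, adjusted p = 0.243). Hsph1, an exchange factor that reloads HSP70 with ATP, had 95.5 and 62.2 CPM in labelled KO and 92.5 and 104 CPM in WT, and its groups overlapped (log2 -0.32, SE 0.46, adjusted p = 0.697). The difference of Hsph1 was -0.059 without KO337 and -0.68 without KO26.

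The strongly inducible genes were set by 1 WT library. Hspa1a stood at 3.83 and 1.04 CPM in KO26 and KO337, against 36.9 CPM in WT35 and 0.44 CPM in WT338. WT35 was the highest of all 10 libraries and WT338 the lowest, 83.8-fold apart, with 746 and 7 reads. Hspa1b stood at 4.35 and 2.17 CPM in KO26 and KO337, against 49.6 and 1.38 CPM in WT35 and WT338, again with the 2 WT libraries at the ends of the range of the series and 35.9-fold apart. Dnajb1, the J-domain partner of inducible HSP70, stood at 26.4 and 15.8 CPM in KO26 and KO337, against 50.01 CPM in WT35 and 13.4 CPM in WT338, a 3.72-fold gap between the WT libraries. With all libraries the log2 differences were -2.96 for Hspa1a, -2.98 for Hspa1b and -0.59 for Dnajb1, none called (adjusted p of 0.200, 0.141 and 0.549). Without WT35 all 3 turned positive, at 2.43, 1.22 and 0.64, again without a call (adjusted p of 0.311, 0.324 and 0.55). The direction of these 3 genes was therefore that of 1 library. Counting Hspa1a and Hspa1b as 1 gene gave a log2 difference of -2.97 (adjusted p = 0.159). The other members did not follow WT35 to that extent: their ratio of the higher to the lower WT library was 1.05 for Bag3, 1.11 for Hspb7, 1.12 for Hsph1, 1.21 for Hsp90aa1, 1.28 for Cryab, 1.45 for Hspa8 and 1.56 for Hspb1.

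The heart muscle cell markers were also lower in labelled KO libraries, and none of them was called. With all libraries the 14 tested markers had a median log2 difference of -0.87 with all 14 negative, beside the members' -0.86. The members' median was -0.49 without WT35, and that of the markers without WT35 was not computed. When libraries were scaled so that these markers were level, which moves the median of all genes by 1.02 on the log2 scale, the log2 differences were 0.13 for Bag3 (adjusted p = 0.656), 0.018 for Hspa8, 0.029 for Hspb1, 0.075 for Cryab and 0.18 for Hspb7. Under that scaling Hsp90aa1 (0.51), Hsph1 (0.61) and Dnajb1 (0.39) were positive, Hspa1a (-2.07) and Hspa1b (-1.99) stayed negative with WT35 in the fit, and no member was called by edgeR (adjusted p of 0.0869 to 0.948), where 58.2% of all genes were. In whole tissue fewer cells of a type and less RNA per cell cannot be told apart, and the part of cell composition in these differences was not tested. With no scaling factors, which moves the median of all genes by 0.226, Bag3 stayed called at -0.65 (adjusted p = 0.0406).

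**Figure D2:**
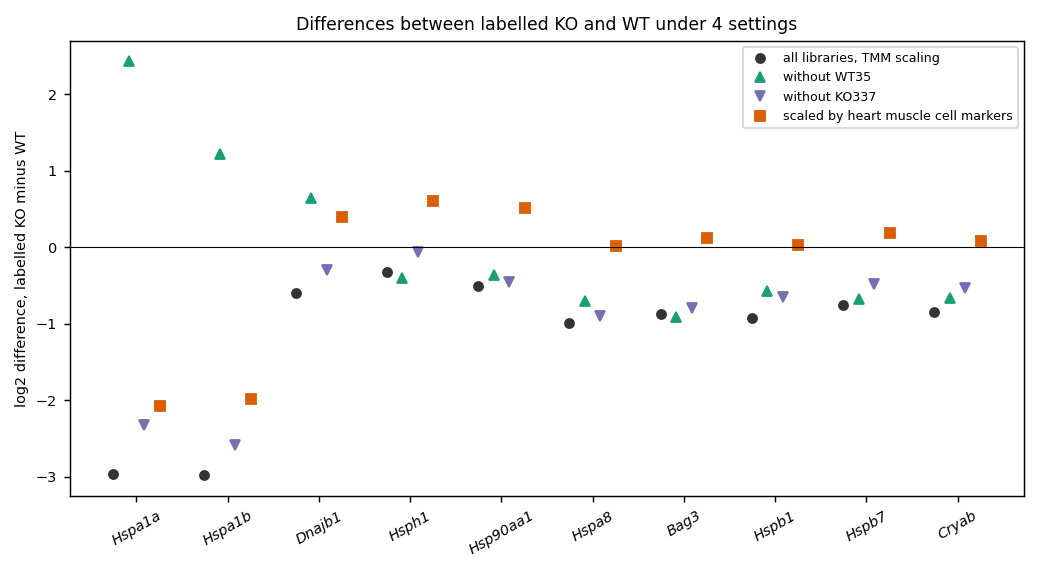
Log2 difference between labelled KO and WT libraries (vertical axis) for each member, with all libraries under TMM scaling (circles), without WT35 (upward triangles), without KO337 (downward triangles) and with libraries scaled by heart muscle cell markers (squares). Hspa1a, Hspa1b and Dnajb1 cross 0 without WT35 (2.43, 1.22 and 0.64), and Hspa8, Bag3, Hspb1, Hspb7 and Cryab lie between 0.018 and 0.18 under the marker scaling.

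No member differed between IBR and CTL libraries beyond the spread between libraries. Bag3 stood at 300.4, 318 and 317 CPM in IBR libraries, against 349, 380 and 318 CPM in CTL libraries. Both groups overlapped at about 318 CPM (log2 -0.16, SE 0.13, adjusted p = 0.829). Hspb7 stood at 1747, 1916 and 2007 CPM in IBR, against 2142, 2512 and 1651 CPM in CTL (log2 -0.15, SE 0.22), and Cryab at 1353, 1682 and 1489 CPM in IBR, against 1628, 2123 and 1458 CPM in CTL (log2 -0.20, SE 0.24). The CTL libraries were the more spread of the groups for both genes, with CTL2 highest and CTL3 lowest. Hspb1 stood at 190, 244 and 233 CPM in IBR, against 247, 320 and 240 CPM in CTL (log2 -0.27, SE 0.22).

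Hspa8 and Hsp90aa1 overlapped between the drug groups in the same way. Hspa8 stood at 1276, 1277 and 1546 CPM in IBR, against 1611, 1563 and 1182 CPM in CTL (log2 -0.09, SE 0.20), and Hsp90aa1 at 193, 253 and 225 CPM in IBR, against 228, 355 and 199 CPM in CTL (log2 -0.22, SE 0.21). Hsph1 varied 2.25-fold within IBR and 2.74-fold within CTL, at 36.2, 81.4 and 67.4 CPM in IBR against 44.8, 122 and 78.2 CPM in CTL (log2 -0.41, SE 0.38). Dnajb1 stood at 14.1, 12.1 and 16.4 CPM in IBR, against 29.4, 13.1 and 13.5 CPM in CTL, so CTL1 alone lay above the other 5 libraries (log2 -0.40, SE 0.48), and without CTL1 the difference was 0.092. Hspa1a was at 0.804 to 2.26 CPM in IBR and 0.937 to 1.82 CPM in CTL, and Hspa1b at 1.72 to 2.22 CPM in IBR and 1.76 to 2.36 CPM in CTL (log2 0.03 and -0.10, SE 1.20 and 0.97); CTL1, high in Dnajb1, lay within the IBR range for both genes.

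By edgeR's quasi-likelihood test 0 of the 10 members were called for ibrutinib, 0 at an unadjusted p under 0.05 (2.21% of all genes were lower and 3.31% higher at that level) and 0 by DESeq2, and over all genes 0% were called by edgeR. Of the members 9 had negative differences, as had 55.2% of all genes, and the median was -0.18 against -0.03 over all genes. That median was -0.05 without CTL2 and -0.31 without CTL3. The IBR and CTL libraries overlapped for all 10 members, while 7.55% of all genes were lower and 5.91% higher without overlap. The heart muscle cell markers had a median of -0.21 in this comparison, and with libraries scaled by them the members' median was 0.0066. The fibroblast markers, with sums of 3410 to 5601 CPM in IBR against 2391 to 3568 CPM in CTL, had a median of 0.72. The leukocyte markers, with sums of 372 to 582 CPM in IBR against 288 to 340 CPM in CTL, had a median of 0.48. Their part in the members' differences was not tested.

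**Figure D3:**
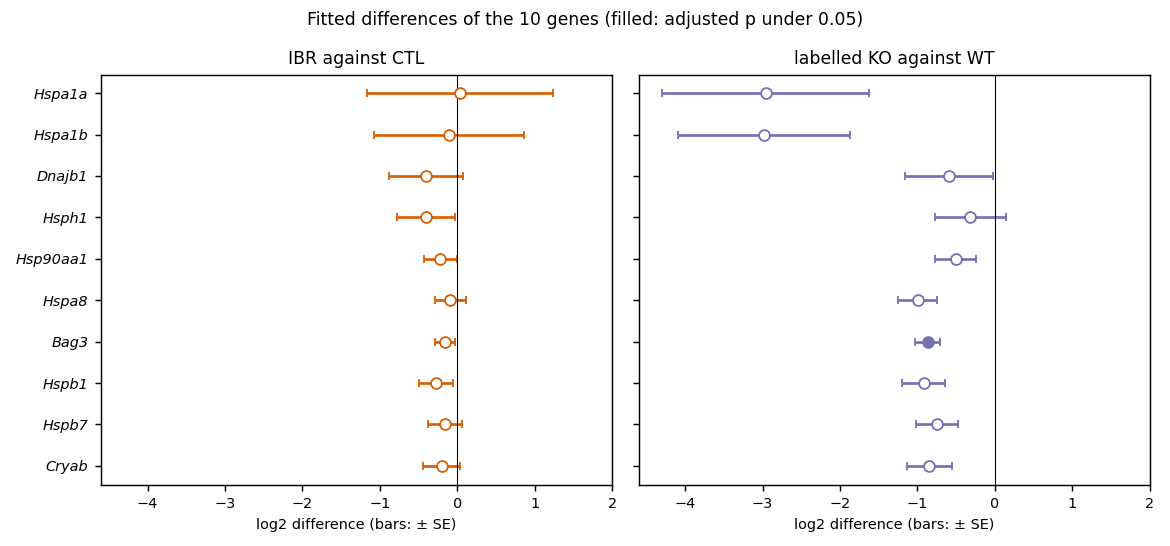
Fitted log2 difference with its SE (horizontal bars) for each member, for IBR against CTL on the left and labelled KO against WT on the right. Bag3 in labelled KO against WT is the 1 filled, called point (-0.87), and the differences for ibrutinib lie between -0.41 and 0.03.

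The difference of both effects, labelled KO minus WT less IBR minus CTL, was negative for 9 of 10 members, as for 47.3% of all genes. Its median was -0.64 over the members against 0.03 over all genes. By edgeR 0 members were called, where 0.026% of all genes were. The members' median was -0.24 without WT35, -0.37 without KO337 and -1.01 without KO26. The difference was -0.71 for Bag3 (SE 0.20, adjusted p = 0.357) and -0.91 for Hspa8 (SE 0.32, adjusted p = 0.429), the 2 members at an unadjusted p under 0.05. At that level were 1504 of all 15364 genes, 741 of them lower. DESeq2 called 1 member, Bag3 (adjusted p = 0.017), where it called 0.911% of all genes. The change of Bag3 is therefore not shown by edgeR to differ between the comparisons.

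Of the 11 lists of other chaperone, heat shock and partner genes, 1 gene was called in labelled KO against WT and 0 were called for ibrutinib. Over all genes 2.21% and 0% were called in these 2 comparisons. Flnc, filamin C, the Z-disc client that Bag3 helps to remove, had 526 CPM (KO26) and 276 CPM (KO337) in labelled KO, against 1807 CPM in WT35 and 825 CPM in WT338 (log2 -1.71, SE 0.37, adjusted p = 0.0473). Like Hspa1a, Hspa1b and Dnajb1 it was highest in WT35 of all 10 libraries, and without WT35 the difference was -1.05. Of the 10 muscle partners of Bag3 and the small heat shock proteins 9 had negative differences, with a median of -0.76, and Ldb3, a Z-disc protein, stood at -0.98 (adjusted p = 0.0622). The other 4 tested small heat shock proteins had a median of -0.76, with Hspb6, a partner of Hspb1 in muscle, at -1.24 (adjusted p = 0.0648) and Hspb3 at -0.87 (adjusted p = 0.0945), while Hspb8, which forms a complex with Bag3, stood at -0.21. Cryaa, the lens crystallin, had too few reads to be tested.

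The remaining chaperone lists lay nearer to the all-gene median than the muscle lists did. Among the 10 other tested HSP70 and HSP110 genes, with a median of -0.40, Hspa4l and Hspa4 stood at -0.58 and -0.45 (adjusted p of 0.0916 and 0.112). Among 18 HSP90 genes and co-chaperones, with a median of -0.37, Unc45b, the myosin chaperone of striated muscle, stood at -1.24 (adjusted p = 0.0598), with 217 and 96.9 CPM in KO26 and KO337 against 394 and 344 CPM in WT35 and WT338, and Trap1, the HSP90 of mitochondria, at -0.60 (adjusted p = 0.0766). The 17 J-domain genes had a median of -0.21, with Dnajb2 at -0.72 (adjusted p = 0.0608) and Dnajb5 at -1.72 (adjusted p = 0.0932), the last with 73.9 and 45.0 CPM in KO26 and KO337 against 280 CPM in WT35 and 110 CPM in WT338. The 14 genes of the BAG family and of chaperone-assisted autophagy had a median of -0.19, with Synpo2, which links the Bag3 complex to autophagosome formation, at -0.65 (adjusted p = 0.0562) and Wipi1 at -0.39 (adjusted p = 0.133).

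Among the regulators and the general folding machinery no gene was called. The 4 heat shock factor genes had a median of -0.10, with Hsf4 at 0.35 and Hsf2 at -0.25 (adjusted p of 0.432 and 0.507) and Hsf1, the main stress-activated factor, at -0.03. The 14 other heat shock factor 1 targets had a median of -0.42 with Fkbp4, a co-chaperone of steroid receptors, at -0.75 (adjusted p = 0.0832). Several genes are in more than 1 list, such as Fkbp4, Hspa4, Hspd1 and Hspa5, so the list medians are not independent. Chaperonins and prefoldin had a median of -0.29 over 16 genes, with Cct3 at -0.47 and Cct7 at -0.40 (adjusted p of 0.098 and 0.165). Proteasome subunits had a median of -0.19 with all 27 negative, among them Psmb2 at -0.40 and Psmd2 at -0.35 (adjusted p of 0.161 and 0.197). Endoplasmic reticulum chaperones and stress genes had a median of -0.02 over 21 genes, with Edem1, which marks misfolded glycoproteins for degradation, at 0.84 (adjusted p = 0.0837) and Herpud1 at -0.93 (adjusted p = 0.1).

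For ibrutinib the medians of the same 11 lists ran from -0.29 (small heat shock proteins) to 0.01 (endoplasmic reticulum), and 0 list genes were called by edgeR. Hspbp1 of the BAG family list and Ddit3 of the endoplasmic reticulum list were lower at an unadjusted p under 0.05. At that level 2.21% of all genes were lower and 3.31% higher. Hspb6 stood at 321, 362 and 367 CPM in IBR, against 479, 538 and 502 CPM in CTL, without overlap between the groups (log2 -0.53, SE 0.26, adjusted p = 0.823). Other list genes, among them Hspa9, Dnaja3, Hspbp1, Psmb3 and Psmb5, were also lower without overlap, while Dnajc10 and Lamp2 were higher without overlap. The list genes without overlap were not counted. Over all genes 7.55% were lower and 5.91% higher without overlap. With the 2 genes of smallest p taken from each list, whatever their p, the others were Hspb3 (-0.30), Hspa9 (-0.29), Hspa4l (-0.13), Sgta (-0.21), Unc45a (-0.28), Dnajb2 (-0.23), Dnaja3 (-0.30), Hspbp1 (-0.33) and Bag1 (-0.33). In the remaining lists they were Hsf4 (0.18), Hsf2 (-0.11), Hspe1 (-0.53), Dnaja1 (-0.29), Pfdn6 (-0.30), Ddit3 (-0.57), Pdia4 (0.34), Psmb5 (-0.27), Psmb3 (-0.30), Capzb (-0.21) and Nexn (-0.22), with adjusted p of 0.823 to 0.915 for all the genes just named.

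**Figure D4:**
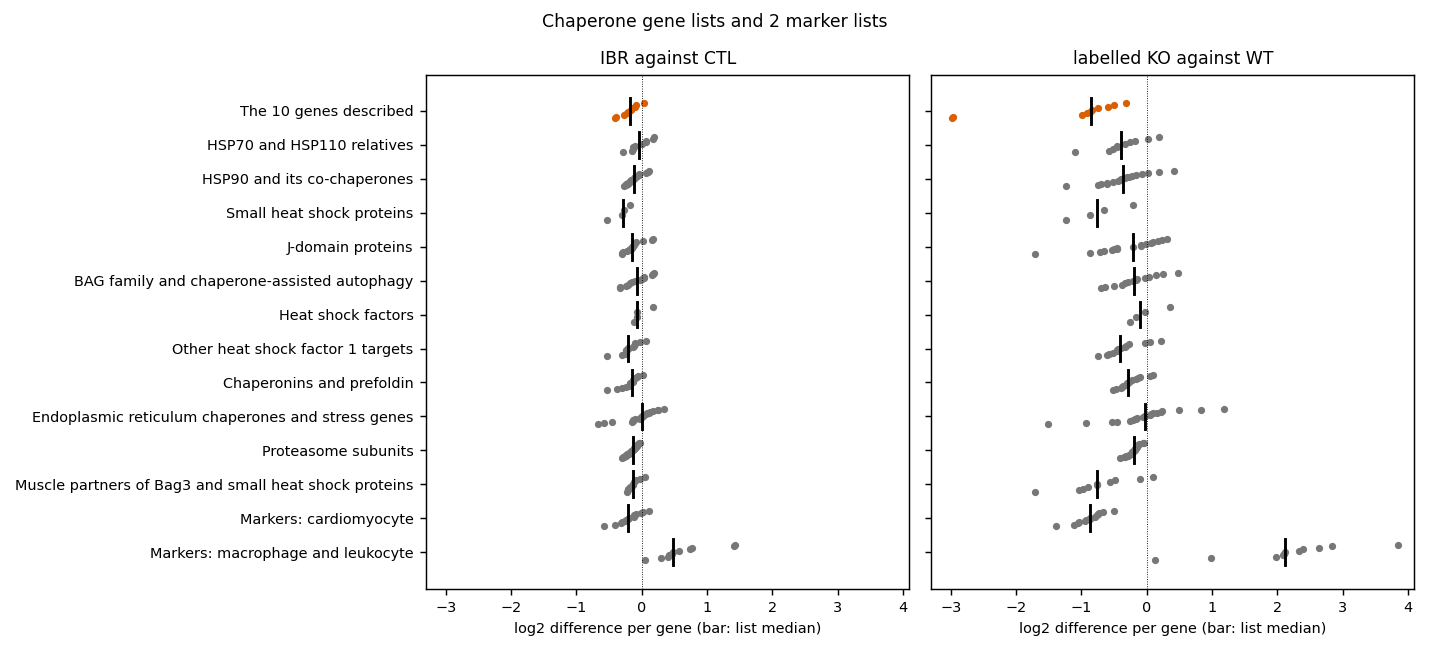
Log2 difference of each tested gene (points) and list median (bars) for the 10 members, the 11 other lists and 2 marker lists, for IBR against CTL on the left and labelled KO against WT on the right. In labelled KO against WT the members, the small heat shock proteins, the muscle partners and the heart muscle cell markers have medians of -0.86, -0.76, -0.76 and -0.87, and the leukocyte markers one of 2.11.

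Across the 10 libraries some members had like profiles, Hspa1a and Hspa1b lay furthest from the rest, and the others lay between. With each gene's log2 CPM centred on its mean, the root mean square difference between profiles was 0.129 for Hspb1 and Cryab, 0.151 for Hspb7 and Cryab and 0.171 for Hspa8 and Hspb7, and at most 0.274 between any 2 of Bag3, Hspa8, Hspb1, Hspb7 and Cryab. Hspa1a and Hspa1b were 0.51 apart from each other and at least 0.958 from every other member. Hsp90aa1 was 0.3 from Bag3, its nearest member, while Hsph1 and Dnajb1 were nearest to Hsp90aa1, at 0.395 and 0.639. The members thus had no sharp split into sets. Of 13708 genes compared, those near to Bag3 included Actn2, the Z-disc protein alpha-actinin (0.0768), and Dnajb2 (0.0924). The nearest to Hspb7 were Cox4i1, a subunit of cytochrome oxidase (0.0896), Hibadh and Coq2, and those nearest to Cryab were Etfa, an electron carrier of fatty acid oxidation (0.0941), Ank1 and Prdx3. Those nearest to Hspa8 were Slc47a1 (0.136), Reep5 and Gpr137c. All these profiles share the split of the libraries by experiment and the low labelled KO libraries, so the values are a description of likeness.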

How the data were processed

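The authors deposited raw read counts by gene, without normalization, 1 file for each of 10 poly(A) libraries, and the labels' protocols name a directional kit. The submitters' processing notes name STAR, HTSeq, edgeR and the build mm9, with no versions, and the deposited files are marked as not stranded. The 5 rows of unassigned reads were left out; reads without a unique position made up 11.8% to 27.4% of the counted records, those in no feature 13.5% to 19.9% and ambiguous reads 3.14% to 3.99%. Symbols were matched to 32860 of 37583 gene identifiers (87.4%).

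Genes were kept by filterByExpr (minimum count 10, minimum total 15), which left 15364. Libraries were scaled by TMM, and all 4 groups entered 1 robust quasi-likelihood fit in edgeR 4.0.16 (R 4.3.3) with 6 residual degrees of freedom. Its common coefficient of biological variation came to 0.221, against 0.294 in the labelled KO and WT libraries alone and 0.169 in the CTL and IBR libraries alone. "Called" means a Benjamini-Hochberg adjusted p under 0.05 over all genes. Each standard error (SE) was derived as the log2 difference divided by the root of F. DESeq2 1.42.0 was an alternative. The fit was also run on data simulated with the spread estimated from all libraries together. That run cannot show how the calls fare where the experiments differ in spread, as they do here. Counts of every replicate pair differed by more than sampling noise (chi-square per gene of 13.4 to 134).

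The members and lists were chosen with earlier results of these data known. Named are all members, called genes of the lists and the 2 list genes with the smallest p in each comparison, and the 3 genes with the profile nearest to each of 4 members, of which 1 is not reported here; Hspb8, Hsf1, Cryaa and the genes of the closing section were named after their values were seen. Of 243 listed genes 242 were found in the files. Levels per kilobase used the union of exons in GENCODE vM21, whose build is GRCm38, not mm9, so they are approximate.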

Additional observations from a re-analysis of the deposited data

How the results depend on the processing

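The count of members called in labelled KO against WT, all of them lower, was 1, and it was 0 with scaling by heart muscle cell markers and in a fit of the compared libraries alone, 4 with no filter on low counts and 5 by DESeq2; leaving out 1 library gave 0 to 5. Over all genes the calls numbered 339, against 8941, 0, 1146 and 1830 under those 4 settings and 14 (without WT35) to 3933 (without KO26) without 1 library. The 5 members called by DESeq2 were Bag3 (adjusted p = 2.88e-07), Hspa8, Hspb1, Hspb7 and Cryab. For the difference of both effects 0 members were called, against 1 by DESeq2 and 0 to 2 without 1 library. Over all genes that difference had 4 calls, against 140 by DESeq2, 84 with no filter, 0 with the marker scaling and 0 to 1564 without 1 library. For ibrutinib 0 members were called under every setting run, and over all genes 0, against 2 by DESeq2 and 2 with no filter. The cause of these changes was not tested. A fit of the 4 labelled KO and WT libraries has fewer residual degrees of freedom, and these libraries were also more spread. Their common coefficient of biological variation was 0.294, against 0.221 for all libraries and 0.169 for the CTL and IBR libraries alone. The SE of Bag3 was 0.20 in the fit of the labelled KO and WT libraries alone, against 0.16 with all libraries.

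Scaling by the heart muscle cell markers turned the direction of many values. For ibrutinib these were Bag3 (0.027), Hspa1b (0.074), Hspa8 (0.12), Hspb7 (0.049), Hspa4l (0.058) and Hsf2 (0.079). For labelled KO against WT they were Bag3 (0.13), Hspa8 (0.018), Hsph1 (0.61), Hspb1 (0.029), Hspb7 (0.18), Cryab (0.075), Dnajb1 (0.39), Hsp90aa1 (0.51), Hspa4l (0.38), Hspa4 (0.55), Trap1 (0.37), Hspb3 (0.085), Dnajb2 (0.24), Synpo2 (0.36), Wipi1 (0.62), Hsf2 (0.69), Fkbp4 (0.18), Cct3 (0.52), Cct7 (0.58), Herpud1 (0.0080), Psmb2 (0.57) and Psmd2 (0.65), and for the difference of both effects Bag3 (0.099). Without scaling factors Hspa8 under ibrutinib was 0.00345, and with both HSP70 genes summed Hspa1a under ibrutinib was -0.046. Leaving out 1 library turned some values. For ibrutinib the ranges were -0.45 to 0.32 for Hspa1a, -0.70 to 0.0050 for Hsph1, -0.60 to 0.092 for Dnajb1, -0.38 to 0.066 for Hsp90aa1, -0.0034 to 0.30 for Hsf4 and -0.20 to 0.045 for Hsf2. For labelled KO against WT they were -4.18 to 2.43 for Hspa1a, -3.94 to 1.22 for Hspa1b and -1.25 to 0.64 for Dnajb1. Flnc lost its call in each fit without 1 library except that without KO26 (adjusted p of 0.0546 to 0.241 where lost).

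CTL and IBR libraries share the numbers 1 to 3, and the sources used here do not say whether these mark pairs. Their deviations from the group means correlated at 0.0159, 0.162 and 0.0321 for same-numbered libraries. For libraries of different number the correlations ran from -0.197 to 0.182. So few weak correlations cannot decide whether the libraries were paired. With the replicate block 0 members were called for ibrutinib, and the members' median was -0.15. WT and labelled KO libraries share no number, so no block could be made there. For ibrutinib the SE of Hspa1a was 1.20 with all libraries, 0.57 without WT35 and 0.55 without WT338, and that of Hspa1b was 0.97, 0.34 and 0.30 in the same fits.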

Other observations

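WT35 held 5 tested genes at 4 or more times the CPM of every other library, against 0 in CTL1, CTL3 and each IBR library, 2 in CTL2, 2 in WT338, 15 in KO26 and 191 in KO337. The 5 genes were Hspa1a, Hspa1b, Xirp1, Habp2 and B230216N24Rik. Xirp1 encodes Xin, an actin-binding protein of the intercalated disc and of muscle under stress, and had 371 and 188 CPM in KO26 and KO337, against 2300 CPM in WT35 and 313 CPM in WT338 (log2 difference labelled KO minus WT -2.22, SE 0.76, adjusted p = 0.119 in edgeR's quasi-likelihood test). Outside WT35 its highest level was 503 CPM. Hspa1a, Hspa1b and Xirp1 were highest in WT35 by the rule that picked them. Flnc, Dnajb1, Dnajb4 and Dnajb5 were also highest in WT35 of all 10 libraries, and the share of all genes highest there was not counted. Bag3 was lower in WT35 (322 CPM) than in WT338 (339 CPM).

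All 10 members were lower in KO337 than in KO26, but the share of all genes lower in KO337 was not counted, so this cannot be read as particular to the members. KO337 also had the lower sum of heart muscle cell markers, at 39230 CPM against 77640 CPM in KO26. Relative to the mean log2 level of those markers, Bag3 stood at -2.65 in KO337 and -3.38 in KO26, against -3.25 in WT35 and -2.95 in WT338, so the labelled KO libraries lay on both sides of WT.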
